A study of Homo sapiens with 6 samples.

Results

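The genes that copy DNA in S phase and the genes that carry a cell through mitosis were followed in OVCAR8 cells, a human high-grade serous ovarian cancer line, after EZH2 was targeted by a drug or by a hairpin. The list held 59 genes, chosen by name with earlier results of these data known: 30 act in S phase or at entry into it, and 29 act in mitosis. A gene was tested where its value reached 10 or more in at least 2 of the 6 samples, which 58 members did, 29 of each class, out of 9671 such genes among the 14930 in the table. E2F2, an activating E2F transcription factor, was the member left out, with values of 4 to 8 in the 6 samples. D cyclins and CDK inhibitors were not on the list.

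RNA was sequenced from 3 groups of 2 samples each, all collected at 72 h. Control cells (Ctrl) received DMSO. Cells of the DZNep group received 5 μM of 3-deazaneplanocin A, an inhibitor of S-adenosylhomocysteine hydrolase that leads to loss of EZH2 protein and of histone methylation. The shEZH2 group carried a doxycycline-inducible hairpin against EZH2 (construct number 2) and received 1 μg/mL doxycycline. The labels do not say whether the Ctrl cells carried the hairpin construct. The doses are those of the study's methods, whereas the sample labels write mM and mg/mL. Only one hairpin was used, and neither hairpin cells without doxycycline nor a control hairpin with doxycycline were among the 6 samples, so that effects of the hairpin, of its construct and of doxycycline cannot be told apart. The labels do not say that the samples of a group came from separate cultures, and p-values therefore measure only the spread between these samples, which may be technical.

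Each origin of replication is licensed when CDC6 and CDT1 load the MCM2-7 helicase, which CDC45 and the GINS complex later switch on. E2F factors drive the genes of this step. Genes of mitosis are expressed later, and are held down and then switched on by the DREAM and MYB-MuvB complexes through a promoter element called CHR, often next to CCAAT boxes bound by NF-Y. EZH2 is the catalytic subunit of Polycomb repressive complex 2, and its own gene is an E2F target.

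The promoters of the members were read for the elements of the 2 programmes, as a description of what sets the classes apart. RefSeq promoters (GRCh38.p14, 250 bases before to 50 after the start) matched 26 of 30 S-phase and 23 of 29 mitotic members. Both strands were searched for E2F sites (TTTCCCGC or TTTGGCGC), CHR elements (TTTGAA or TTCGAA) and CCAAT boxes (CCAAT), none of which lies inside another. E2F sites were in 61.5% of the S-phase and 8.7% of the mitotic promoters, against 4.21% of those of tested genes and 2.31% of all promoters. CHR elements were in 7.69% and 65.2%, against 10.5% and 16.6%, and CCAAT boxes in 57.7% and 82.6%, against 37.4% and 35.7%. Both CHR and CCAAT were in 60.9% of the mitotic promoters and 4.78% of those of tested genes. A match of letters is no proof that a factor binds there, and its absence says only that these letters are not in this window.

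The 150 bases before the start of 6 members are shown as examples, on the strand of the gene and with motif letters in capitals. CDT1 and CDC25A each hold an E2F site, which begins at position -35 and -44 from the start. RRM2 holds 3 CCAAT boxes and no E2F site as searched. CCNB2 and PLK1 hold a CHR at position -29, with 3 CCAAT boxes before it in CCNB2 and 1 in PLK1, and KIF20A holds CCAAT boxes without a CHR. In GRCh38.p14 they lie, CDT1 at chr16:88803639-88803788 on the plus strand, CDC25A at chr3:48188418-48188567 on the minus strand, RRM2 at chr2:10122589-10122738 on the plus strand, CCNB2 at chr15:59104996-59105145 on the plus strand, PLK1 at chr16:23678739-23678888 on the plus strand and KIF20A at chr5:138178962-138179111 on the plus strand.
CDT1: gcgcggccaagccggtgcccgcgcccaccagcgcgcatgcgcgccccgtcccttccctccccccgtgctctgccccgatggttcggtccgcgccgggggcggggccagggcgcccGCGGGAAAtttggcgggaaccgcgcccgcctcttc
CDC25A: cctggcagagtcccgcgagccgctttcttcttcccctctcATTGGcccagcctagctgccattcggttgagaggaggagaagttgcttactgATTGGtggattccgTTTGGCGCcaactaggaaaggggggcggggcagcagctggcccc
RRM2: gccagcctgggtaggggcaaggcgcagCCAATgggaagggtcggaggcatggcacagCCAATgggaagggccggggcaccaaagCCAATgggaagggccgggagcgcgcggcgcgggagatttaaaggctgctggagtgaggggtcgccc
CCNB2: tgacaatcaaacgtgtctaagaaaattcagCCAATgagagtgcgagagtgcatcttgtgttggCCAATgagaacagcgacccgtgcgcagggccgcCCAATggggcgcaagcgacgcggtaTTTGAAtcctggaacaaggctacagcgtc
PLK1: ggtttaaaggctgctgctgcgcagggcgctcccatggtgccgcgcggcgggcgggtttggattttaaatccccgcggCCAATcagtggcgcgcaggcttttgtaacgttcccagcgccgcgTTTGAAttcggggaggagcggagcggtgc
KIF20A: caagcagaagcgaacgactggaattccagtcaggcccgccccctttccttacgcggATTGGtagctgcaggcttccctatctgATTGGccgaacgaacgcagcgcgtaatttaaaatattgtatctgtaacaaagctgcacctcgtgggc

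The values are whole numbers that the authors scaled to a common total, 999956 to 1000068 in each sample. The number of reads behind them is unknown, so counting error cannot be given. Log2 fold changes were computed on log2(value + 1) after trimmed-mean scaling, which understates the change of genes with low values, and are given with their SE from limma. A gene was called changed where limma's adjusted p (Benjamini-Hochberg, over all 9671 genes) was under 0.05. EZH2 itself had values of 36 and 42 in Ctrl, 26 and 26 with DZNep and 18 and 18 with shEZH2. It was called lower in both groups, with log2 fold changes of -0.64 ± 0.18 (SE, adjusted p = 0.0248) and -1.12 ± 0.18 (adjusted p = 0.0171). Of 8 markers of ovarian carcinoma and epithelial cells, 7 had a row in the table and 4 were tested. With DZNep 2 were called higher and 1 lower, where 21.6% and 20.6% of all genes were, and with shEZH2 0 were called. The log2 fold changes of these 4 ran from -0.69 to 1.76 with DZNep, 2 below and 2 above 0. With shEZH2 they ran from -0.68 to 0.66. Among the 8, the epithelial keratins KRT8 and KRT18 were at 816 to 1392 in Ctrl and 3046 to 4398 with DZNep. The Müllerian marker PAX8 was at 10 to 19 in all samples and WT1 at 1 to 2. Of 8 markers of other cell types, 3 had a row in the table (CD68, COL1A1 and HBB), with summed values of 83 to 85 in Ctrl, 25 to 31 with DZNep and 39 to 49 with shEZH2, most of it from CD68, a lysosomal protein (65 to 70 in Ctrl and 15 to 18 with DZNep), while HBB was at 0 to 2. The part of these shifts in the results was not tested.

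The replicates were unequal in a way that touches these genes. The replicates of Ctrl, and those of DZNep, differed from each other by an SD of 0.428 and 0.446 (log2) over the 9671 genes, against 0.141 for shEZH2. In both pairs the difference followed the GC content of the transcript: among the 58 members, Spearman's rho of the difference (replicate 2 minus replicate 1) with GC was -0.854 in Ctrl, -0.877 in DZNep and 0.0645 in shEZH2. The log2 fold changes followed GC as well, over the 9027 genes with a known GC content. Spearman's rho was 0.254 for DZNep and 0.355 for shEZH2 against Ctrl, and -0.0615 for shEZH2 against DZNep. Points of these descriptions share their libraries, and no test was made. Mitotic members differed more between replicates, with a median absolute difference of 0.402 in Ctrl and 0.37 in DZNep against 0.251 and 0.243 for S-phase members, and their median GC was 44.4% against 47.7%. TOP2A, the topoisomerase that untangles sister chromosomes, stood at 169 and 429 in the Ctrl samples, and KIF11, the kinesin that pushes spindle poles apart, at 35 and 87. Values corrected for GC and transcript length, an alternative added after the data were seen, are given below where they change a call against Ctrl or move a class median. The replicate differences of Ctrl and DZNep correlated by 0.786 over the 9671 genes, but the main fit did not pair samples by number. A term for the number added calls with DZNep of TTK, CENPE, CENPF, KIF11, TOP2A and MKI67 (lower) and of TK1 (higher). With it 28.2% of all genes were called lower and 27.5% higher.

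**Figure D1:**
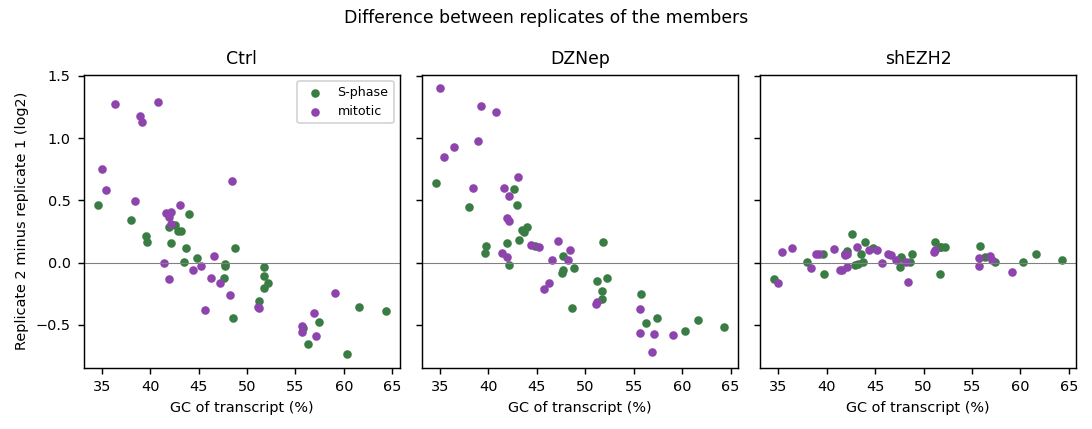
Replicate 2 minus replicate 1 (log2 of value + 1, y axis) of each tested member against the GC content of its transcript (%, x axis), 1 panel per group. In Ctrl and DZNep the points fall from the upper left to the lower right, reaching 1.29 and 1.40 at low GC, while in shEZH2 they stay between -0.168 and 0.23.

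Upon DZNep treatment the mitotic members that were called all fell, and most of the S-phase members that were called rose. Of the 29 mitotic members, 16 (55.2%) were called lower and 0 higher, with a median log2 fold change of -0.81. Of the 29 S-phase members, 11 (37.9%) were called higher and 4 (13.8%) lower, with a median of 0.27. These medians describe the lists, and no p-value belongs to them. Among all tested genes 21.6% were called higher and 20.6% lower, with a median of 0.0055. At an unadjusted p under 0.05, 19 mitotic members were lower and 0 higher, where 25% of all genes were lower and 26% higher. The study applied a cutoff of a log2 fold change over 1 in either direction with an unadjusted p under 0.05 to edgeR results. Here it was applied to limma's values, so the counts are not those of the study. By this cutoff, called the study's threshold below, 8 mitotic members were lower and 0 higher. Of the S-phase members 5 were higher and 3 lower. Of all genes 12% passed downward and 10.2% upward. Over both classes 11 were called higher and 20 lower. On the values as deposited, without further scaling, that split was 13 and 12, and without 1 library in turn it ranged from 8 to 11 higher and from 15 to 22 lower. Of the 31 calls 16 were kept under all 19 alternatives, and 0 of the 31 changed sign. Since the RNA came from whole cultures, fewer cells in a phase of the cycle and less RNA per cell cannot be told apart.

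In each sample the classes lay apart to a different degree. The median of the mitotic members, relative to the mean of Ctrl, was -1.10 in DZNep replicate 1 and -0.56 in replicate 2, and that of the S-phase members was 0.20 and 0.23. The S-phase median exceeded the mitotic one by 1.30 and 0.78 in the DZNep samples, by 0.10 and 0.22 in the shEZH2 samples and by 0.0027 and -0.0027 in the Ctrl samples. Correction for length and GC left the mitotic median at -0.70 and brought the S-phase median down to 0.086. It raised the share of all tested genes called to 28% in each direction, with 23 mitotic members (79.3%) called lower and 0 higher, and 13 S-phase members (44.8%) called higher and 7 (24.1%) lower. The mitotic median ranged from -1.12 to -0.56 when 1 library was left out.

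**Figure D2:**
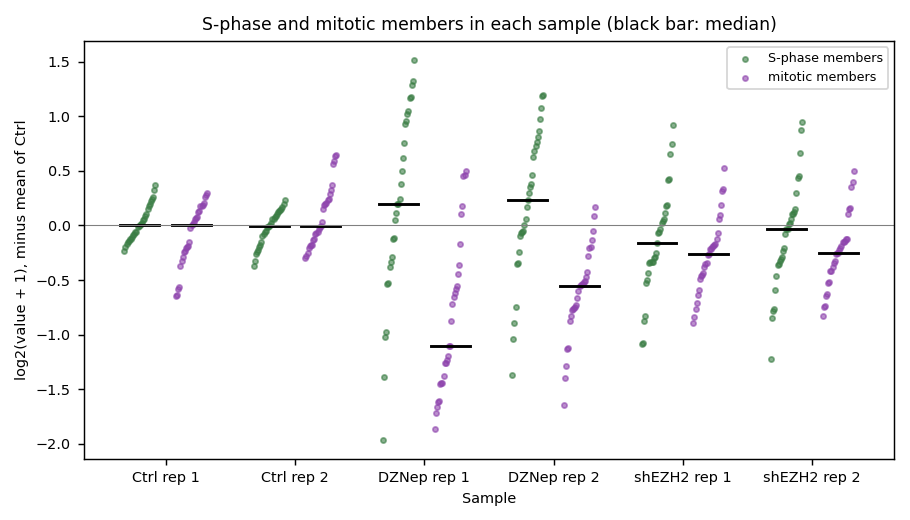
Each point is 1 member in 1 sample, as log2(value + 1) minus the mean of the 2 Ctrl samples (y axis), and black bars are medians over 29 genes. With DZNep the mitotic medians lie at -1.10 and -0.56, below S-phase medians of 0.20 and 0.23, and with shEZH2 the medians of both classes lie between -0.26 and -0.03.

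**Figure D3:**
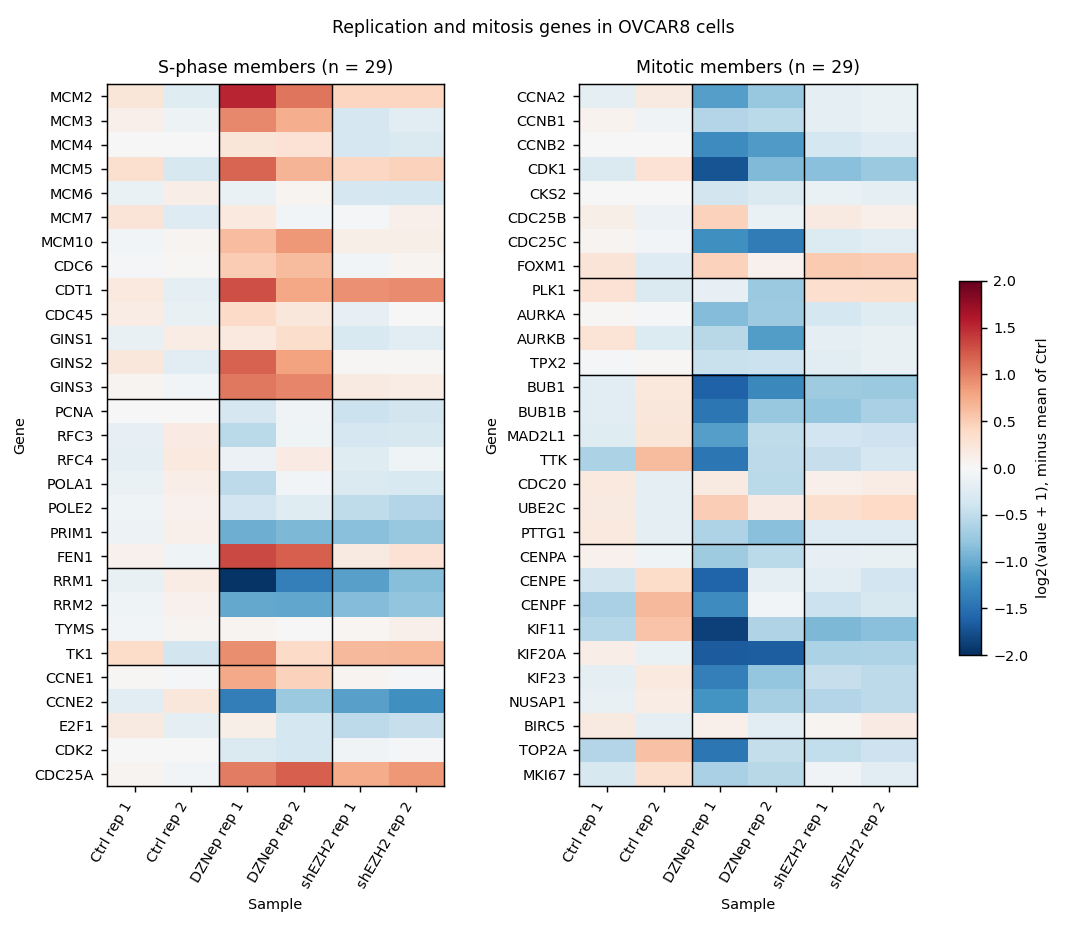
Colour gives log2(value + 1) minus the mean of Ctrl for each tested member (rows, with lines between roles) in each of the 6 samples (columns). With DZNep the licensing and helicase genes at the top left are mostly red and most mitotic genes are blue, while RRM1, RRM2, PRIM1 and CCNE2 are blue in the S-phase panel.

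The 13 genes of origin licensing and the helicase held most of the S-phase members that rose. Upon DZNep treatment 8 of them were called higher and 0 lower, with a median of 0.74. MCM2, a subunit of the helicase ring, had values of 269 and 216 in Ctrl, 668 and 592 with DZNep and 344 and 329 with shEZH2. Both DZNep samples were above every other sample, and the change was 1.30 ± 0.22 (adjusted p = 0.00286). MCM3, another subunit of the ring, rose from 118 and 115 to 219 and 225, by 0.84 ± 0.17 (adjusted p = 0.00612), and was at 98 and 102 with shEZH2. The ring did not move as one, since MCM5 was also called higher (0.93 ± 0.25) whereas MCM4 (0.27 ± 0.15), MCM6 (-0.03 ± 0.17) and MCM7 (0.07 ± 0.21) were not called. After correction for length and GC, MCM4 was called higher (0.20, adjusted p = 0.0429) and MCM7 lower, with the other sign (-0.27, adjusted p = 0.0356). CDT1, the loading factor that geminin restrains, rose from 33 and 28 to 73 and 61, by 1.03 ± 0.23 (adjusted p = 0.00895). CDC6, the ATPase that works with it, stood at 53 and 61 in Ctrl and at 78 and 103 with DZNep. Its change of 0.57 ± 0.16 (adjusted p = 0.0249) was called under 12 of 19 alternatives. Without Ctrl replicate 1 or 2, DZNep replicate 2 or either shEZH2 sample its adjusted p was 0.0635 to 0.0754. GINS2 and GINS3, subunits of the GINS complex, rose by 0.99 ± 0.21 and 1.01 ± 0.17, and GINS1 (0.27 ± 0.20) and CDC45 (0.30 ± 0.19) were not called, except for GINS1 after correction for length and GC (0.43, adjusted p = 0.018). MCM10, a helicase cofactor, rose by 0.74 ± 0.18, a call that held under 15 of 19 alternatives, and that of MCM5 held under 17.

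Genes that supply nucleotides and build the strands behaved otherwise. RRM1, the large subunit of ribonucleotide reductase, fell from 143 and 198 in Ctrl to 41 and 75 with DZNep, and stood at 84 and 94 with shEZH2. Its log2 fold change of -1.67 ± 0.23 (adjusted p = 0.00123) was the lowest of all 58 members with DZNep. RRM2, the small subunit, whose level normally peaks in S phase, fell from 110 and 138 to 58 and 69 (log2 fold change -1.03 ± 0.16, adjusted p = 0.00189). The enzymes of thymidylate supply were not called: TYMS was at 59 and 72 in Ctrl and 65 and 76 with DZNep, and TK1, thymidine kinase, at 155 and 104 and then 234 and 192 (0.65 ± 0.27, adjusted p = 0.09), though TK1 was called higher without Ctrl replicate 1 (1.01), without DZNep replicate 2 (0.92) or after correction for length and GC (0.36, adjusted p = 0.0101). TK1 was also called higher with the term for the replicate number (adjusted p = 0.001845). Among 7 genes of polymerases and the sliding clamp, 1 was called in each direction. FEN1, the nuclease that trims Okazaki fragments, rose from 111 and 111 to 269 and 298, by 1.26 ± 0.16 (adjusted p = 0.000828), and PRIM1, the primase subunit that starts them, fell from 33 and 43 to 18 and 23 (-0.94 ± 0.18, adjusted p = 0.00497). PCNA, the clamp itself, was at 189 and 213 in Ctrl and at 153 and 222 with DZNep, so the groups overlapped, and was not called (-0.21 ± 0.16). The clamp loader subunits RFC3 (-0.32 ± 0.22) and RFC4 (0.03 ± 0.21) and the polymerase subunits POLA1 (-0.29 ± 0.22) and POLE2 (-0.31 ± 0.19) were not called either.

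The regulators of the G1/S transition split. CDC25A, the phosphatase that activates CDK2, went from 25 and 26 to 51 and 69, by 1.11 ± 0.17 (adjusted p = 0.00195). The 2 E cyclins, partners of CDK2, moved in opposite directions. CCNE1 stood at 32 and 35 in Ctrl and at 55 and 54 with DZNep (0.61 ± 0.18, adjusted p = 0.0288), and CCNE2 at 12 and 19 and then at 5 and 10 (-1.07 ± 0.27, adjusted p = 0.016). Both calls depended on the settings. That of CCNE1 held under 10 of 19 alternatives. It was lost without any 1 library other than DZNep replicate 2, with an adjusted p of 0.0546 to 0.113, and on correction for length and GC, with a value of 0.24 and an adjusted p of 0.141. That of CCNE2 held under 15 of 18, since a filter of 10 or more in all 6 samples removes this gene. It was lost on the values as deposited and without Ctrl replicate 2 (adjusted p = 0.0694 in both), and without DZNep replicate 1 (adjusted p = 0.0618). E2F1, the factor upstream of the S-phase genes, was at 47 and 41 in Ctrl and 46 and 40 with DZNep, which overlapped, and CDK2 was at 130 and 145 against 108 and 125, without a call for either. After correction for length and GC both were called lower, E2F1 with -0.36 and CDK2 with -0.50.

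Of the mitotic members, KIF20A had the lowest log2 fold change with DZNep. This kinesin of the central spindle, which brings Aurora B to the cleavage site, had values of 288 and 269 in Ctrl, 84 and 103 with DZNep and 190 and 182 with shEZH2, so that the 3 groups did not overlap. Its log2 fold change with DZNep was -1.65 ± 0.16 (adjusted p = 0.000302). Among 8 members of the centromere, kinesin and spindle group, 4 were called lower, namely KIF20A, KIF23 (-1.07 ± 0.24), NUSAP1 (-0.93 ± 0.22) and CENPA, the histone H3 variant that marks centromeres (-0.63 ± 0.18). The call of CENPA held under 12 of 19 alternatives, with an adjusted p of up to 0.10, and those of KIF23 and NUSAP1 were lost on the values as deposited (adjusted p = 0.057 and 0.0662). KIF11, at 14 and 42 with DZNep, changed by -1.23 ± 0.46 without a call (adjusted p = 0.0608), and was called without Ctrl replicate 1 (-1.81) or DZNep replicate 2 (-1.87), and after correction for length and GC (-0.90, adjusted p = 0.0168). CENPE (-0.90 ± 0.44) and CENPF (-0.66 ± 0.48), which bind kinetochores, were not called in the main fit. With the term for the replicate number KIF11, CENPE and CENPF were called lower (adjusted p = 2.04e-06, 0.00107 and 0.00719). BIRC5, or survivin, the partner of Aurora B, was at 235 and 205 in Ctrl and 228 and 221 with DZNep, and its sign changed between alternatives (-0.37 to 0.12). After correction for length and GC it was called lower (-0.37, adjusted p = 0.00471).

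**Figure D4:**
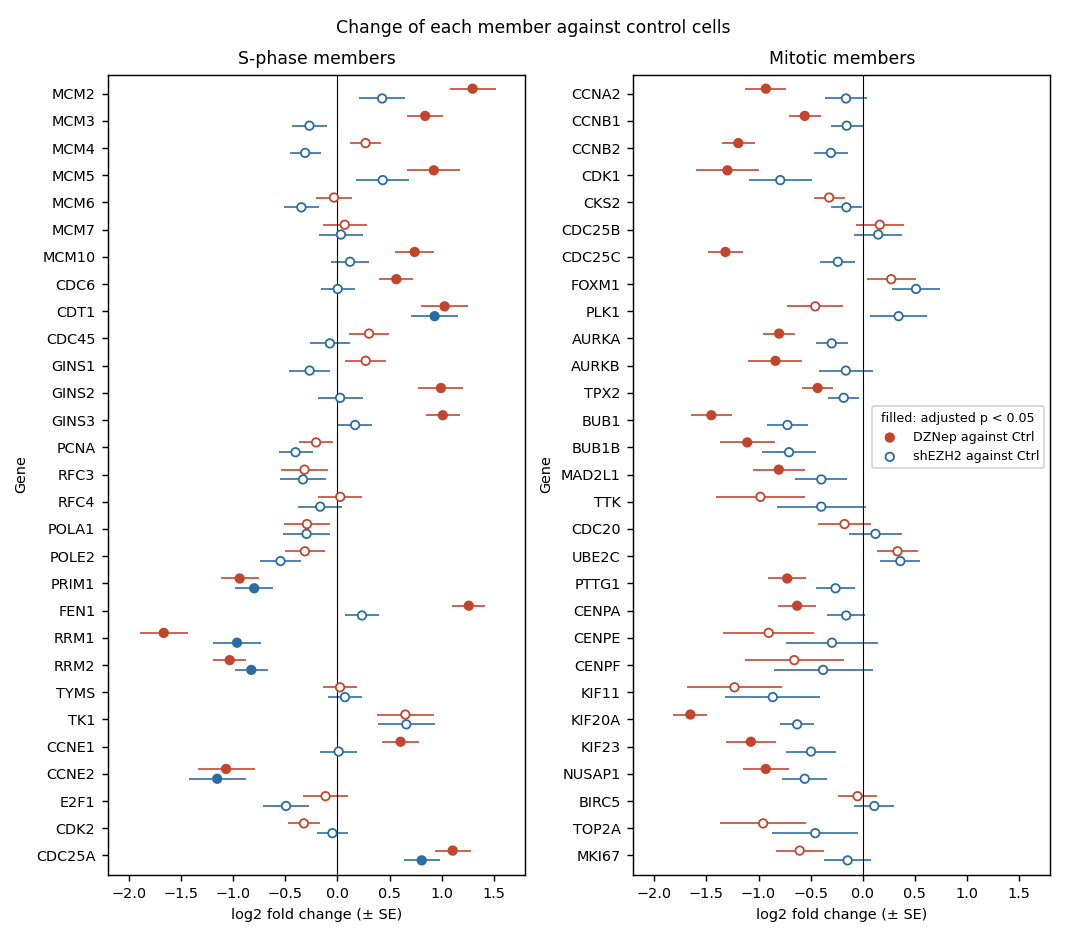
Log2 fold change against Ctrl (x axis, ± SE from limma) of each tested member with DZNep (red) and shEZH2 (blue), with filled points where adjusted p was under 0.05. With DZNep 11 S-phase members are filled to the right and 4 to the left, and 16 mitotic members are filled to the left, whereas with shEZH2 the 6 filled points are all in the S-phase panel.

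Cyclins and their kinase followed the same direction. CCNA2, the cyclin of S phase and G2, was at 140 and 203 in Ctrl and 75 and 116 with DZNep, a change of -0.93 ± 0.20 (adjusted p = 0.00747). CCNB2, a mitotic B cyclin, fell from 98 and 108 to 41 and 54 (-1.19 ± 0.16, adjusted p = 0.000999). CCNB1, the other B cyclin of the list, fell from 500 and 511 to 326 and 406 (-0.56 ± 0.15, adjusted p = 0.0208), and the call held under 13 of 19 alternatives. Without Ctrl replicate 1, DZNep replicate 1 or either shEZH2 sample its adjusted p was 0.0615 to 0.0817. CDK1, the kinase they switch on, fell from 99 and 167 to 37 and 81 (-1.30 ± 0.30, adjusted p = 0.0107), although its call was lost on the values as deposited (adjusted p = 0.0596). The CDC25 phosphatases, which remove the inhibitory phosphates from CDKs, differed from each other. CDC25C, which acts at entry into mitosis, fell from 71 and 73 to 29 and 31 (-1.32 ± 0.17, adjusted p = 0.000845), CDC25B was at 34 and 32 against 44 and 35 without a call, and CDC25A rose, as described above. FOXM1, the factor that activates late mitotic genes, was at 22 and 17 in Ctrl, 26 and 24 with DZNep and 30 and 28 with shEZH2, without a call (0.27 ± 0.23 with DZNep). CKS2, a small CDK-binding subunit, was not called either (-0.32 ± 0.15).

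Kinases and checkpoint genes were lowered in part. AURKA, which builds the spindle poles, fell from 178 and 192 to 97 and 129 (-0.80 ± 0.16, adjusted p = 0.00501), and AURKB, TPX2 (an activator of AURKA) and AURKA made 3 called of the 4 genes of this role. AURKB, the kinase of the chromosomal passenger complex, had a log2 fold change of -0.84 ± 0.26 and a call under 13 of 19 alternatives. TPX2 had one of -0.43 ± 0.15 and was called under 7 of 19 alternatives. PLK1, the polo-like kinase, was at 26 and 19 in Ctrl, 19 and 15 with DZNep and 30 and 29 with shEZH2, and was not called (-0.46 ± 0.27) except after correction for length and GC (-0.79, adjusted p = 0.000655). Of 7 genes of the spindle checkpoint and the anaphase-promoting complex, 4 were called lower. BUB1, a checkpoint kinase at the kinetochore, fell from 255 and 380 to 97 and 148 (-1.45 ± 0.20, adjusted p = 0.00111), followed by BUB1B (-1.11 ± 0.26), MAD2L1 (-0.81 ± 0.25) and PTTG1, or securin (-0.72 ± 0.18). The call of MAD2L1 held under 12 of 19 alternatives, and without DZNep replicate 1 its adjusted p was 0.146. That of BUB1B was lost on the values as deposited (adjusted p = 0.0654), and that of PTTG1 without Ctrl replicate 1 (adjusted p = 0.0512). TTK, the kinase upstream in this checkpoint, at 47 and 129 in Ctrl and 27 and 63 with DZNep, was not called (-0.98 ± 0.43, adjusted p = 0.0986). It was called lower after correction for length and GC (-0.68, adjusted p = 0.0382) and with the term for the replicate number (adjusted p = 3.59e-05). PTTG1 has near-identical gene copies between which reads could be divided. The activator CDC20 (260 and 220, then 262 and 192) and the ubiquitin-conjugating enzyme UBE2C (189 and 165, then 241 and 231) were not called. UBE2C had the highest log2 fold change among the mitotic members, 0.33 ± 0.19, and was called higher on the values as deposited (0.42, adjusted p = 0.0346). After correction for length and GC, CDC20 was called lower (-0.53, adjusted p = 0.00154). MKI67, the proliferation antigen, at 80 and 142 in Ctrl and 65 and 84 with DZNep, and TOP2A, at 95 and 226 with DZNep, were not called (-0.61 ± 0.23, adjusted p = 0.065, and -0.96 ± 0.41, adjusted p = 0.0954). Without Ctrl replicate 1 both were called lower (-0.94 and -1.55), and TOP2A also without DZNep replicate 2 (-1.46). After correction for length and GC both were called lower as well (-0.55 and -0.59). With the term for the replicate number MKI67 and TOP2A were also called lower (adjusted p = 0.004695 and 2.42e-05).

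Upon EZH2 silencing by the hairpin the share of members called, over both classes together, was close to that of all genes. Of the 58 members 2 were called higher and 4 lower, 3.45% and 6.9%, where 3.6% and 4.38% of all genes were. All 6 were S-phase members, 6.9% of that class higher and 13.8% lower, and 0 mitotic members were called. Their values are set against the same Ctrl samples as those of DZNep above. CDT1 was at 62 and 60 with shEZH2 (0.93 ± 0.23, adjusted p = 0.0476) and CDC25A at 46 and 48 (0.81 ± 0.17, adjusted p = 0.0313). RRM2 was lower, at 71 and 72 (-0.83 ± 0.16, adjusted p = 0.0247). PRIM1 was lower as well, at 22 and 22 (-0.80 ± 0.18, adjusted p = 0.0379), and so was RRM1, at 84 and 94 (-0.96 ± 0.23, adjusted p = 0.0461). CCNE2, at 7 and 6, was also lower (-1.15 ± 0.27, adjusted p = 0.0433) and was the member that passed the study's threshold downward, where 3.04% of all genes did; 0 passed upward, against 2.24%. All 6 calls were lost when either shEZH2 sample or Ctrl replicate 2 was left out. The S-phase median was -0.07, and without shEZH2 replicate 1 it was -0.0028.

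Among the mitotic members limma called 0 of 29 with shEZH2, and 5 had an unadjusted p under 0.05, all lower, where 13.4% of all genes did. The difference between the classes was not tested. Their median was -0.26, with a range over left-out libraries of -0.30 to -0.16. Nearest to the threshold were KIF20A (-0.63 ± 0.16, adjusted p = 0.0537) and BUB1, at 202 and 188 (-0.72 ± 0.20, adjusted p = 0.062). PLK1 and FOXM1 had positive values, 0.34 ± 0.27 and 0.51 ± 0.23, without a call. After correction for length and GC 7 mitotic members (24.1%) were called lower, where 17.1% of all genes were, and the median was -0.18. They were KIF20A (-0.67), BUB1 (-0.56), BUB1B (-0.58), CDK1 (-0.60), AURKA (-0.27), AURKB (-0.40) and NUSAP1 (-0.45). The same correction added MCM3 (-0.42), MCM4 (-0.30), PCNA (-0.35) and E2F1 (-0.73) to the S-phase members called lower, and TK1 (0.41) to those called higher. Without either DZNep sample, which then no longer entered the shared estimate of spread, KIF20A, BUB1 and CDK1 were called lower, with adjusted p of 0.0338 to 0.0487.

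The direct comparison tested which members differed between the 2 treatments. In shEZH2 relative to DZNep 3 were higher, all mitotic, and 5 were lower, all of S phase. These were 5.17% and 8.62% of the 58, where 4.84% and 3.94% of all genes were. By class, 10.3% of the mitotic members were higher and 0 lower, and 17.2% of the S-phase members were lower and 0 higher. CDC25C was higher by 1.08 ± 0.17 (adjusted p = 0.0121), KIF20A by 1.03 ± 0.16 (adjusted p = 0.0125) and CCNB2, at 85 and 87 with shEZH2, by 0.89 ± 0.16 (adjusted p = 0.0188). MCM3 was lower (-1.11 ± 0.17, adjusted p = 0.0115), as was FEN1, at 133 and 138 with shEZH2 (-1.03 ± 0.16, adjusted p = 0.0121). GINS2 (-0.97 ± 0.21), MCM2 (-0.87 ± 0.22) and GINS3 (-0.84 ± 0.17) made up the 5. The class medians were 0.46 for mitotic and -0.30 for S-phase members. Of the 29 mitotic members 28 had a positive value, and of the 29 S-phase members 23 had a negative one. After correction for length and GC 58.6% of the mitotic members were called higher and 0 lower. Of the S-phase members 44.8% were then called lower and 6.9% higher. Of all genes 17.3% were called higher and 16% lower with this correction. CDT1, PRIM1, RRM2, CCNE2 and CDC25A, each called against Ctrl, were not called between the treatments, with differences of -0.30 to 0.21, and RRM1 differed by 0.70 ± 0.23 (adjusted p = 0.0978). Without Ctrl replicate 1 or 2 the count of higher members was 6, and without DZNep replicate 1 that of lower members was 2. All 8 calls were lost when either shEZH2 sample was left out, the remaining one then being assumed to vary like the other groups.

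Other genes of the same processes were listed by name for this work, with earlier results of these data known. They gave a similar picture in mitosis and a flatter one in replication, which is no independent support. Of 42 further mitotic genes tested, 18 were called lower and 2 higher with DZNep, with a median of -0.75. For each list here, the shares of all tested genes called with DZNep were 20.6% lower and 21.6% higher. SPC24, a kinetochore subunit, had the lowest value of that list (-1.99 ± 0.23, from 109 and 92 to 28 and 24) and was also the lowest with shEZH2 (-1.20 ± 0.23, adjusted p = 0.0227), whereas CENPM was the highest with DZNep (0.99 ± 0.26). With shEZH2 1 of these 42 was called, SPC24, where 4.38% of all genes were called lower and 3.6% higher. Of 33 further replication genes, 5 were called higher and 3 lower with DZNep, with a median of 0.09. DTL, which targets CDT1 for destruction, had the highest value (0.94 ± 0.18) and ASF1B, a histone chaperone, the lowest (-1.87 ± 0.25), and with shEZH2 TIMELESS, of the fork protection complex, was the 1 called (-0.99 ± 0.20, adjusted p = 0.0272). Of 13 tested genes of the RB, E2F and DREAM machinery 2 were called in each direction with DZNep. MYBL2, the B-MYB subunit that activates mitotic genes, was the highest, at 55 and 46 in Ctrl and 117 and 84 with DZNep (0.88 ± 0.26, adjusted p = 0.0295), and the repressor E2F5 the lowest, at 17 and 18 and then at 3 and 6 (-1.88 ± 0.24, adjusted p = 0.000812). With shEZH2 0 of these 13 were called by limma, and 1 was lower at an unadjusted p under 0.05, where 13.4% of all genes were.

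The promoter elements described above were compared with the response. Of the 10 S-phase members with a promoter that were called higher with DZNep, 6 held an E2F site, of the 12 not called 9 did, and of the 3 called lower (RRM1, RRM2 and PRIM1) 0 did. The median change was 0.07 for the 15 S-phase members with an E2F site and 0.46 for the 10 without. In mitosis 8 of 14 members called lower and 7 of 9 not called held a CHR, and the medians with and without it were -0.93 and -0.87. The promoters of RRM2 and KIF20A printed above are examples of members lowered by DZNep without an E2F site and without a CHR, respectively, as searched in that window, and PLK1 of a member that holds CHR and CCAAT and was not called.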

How the data were processed

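Whole-cell RNA of 6 OVCAR8 samples was sequenced with a stranded, ribosomal RNA-depleted kit. According to the study's methods the authors trimmed reads with fastp, aligned them with STAR to GRCh38 and quantified genes with RSEM against GENCODE. The deposited matrix is called counts, but holds whole numbers that sum to nearly the same total in each sample (999956 to 1000068), so the authors' values were treated as a rounded, scaled score and not as read counts. Whether they were divided by transcript length is not given in the sources used here, and levels were not compared between genes.

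Values were scaled by trimmed means (30% of log ratios and 5% of mean values trimmed) over genes with 10 or more in 2 or more samples, and log2(value + 1) was fitted with limma 3.58.1 (R 4.3.3), group means, all 6 samples and an intensity trend. Figures were drawn with matplotlib 3.10.9. The procedure was tested on simulated data with equal and independent noise in all 6 samples. That setting lacks the unequal, GC-linked replicate differences described above, so it does not test the fit under them. GC and length came from GENCODE 44 transcripts, with 9027 genes matched, and promoters from RefSeq. Members and lists were chosen with earlier results of these data known. Named were well-known hub genes and, in each class and comparison against Ctrl or between treatments, the 3 highest and 3 lowest log2 fold changes; further members were named with their roles after their values were seen. In the other lists only the highest and lowest gene was named. Alternatives changed scaling, filter, pseudocount, trend, samples and replicate handling.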

Additional observations from a re-analysis of the deposited data

How the results depend on the processing

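The 58 members were tested under 19 alternatives, or 18 for POLE2, CCNE2 and CENPE, which miss the strictest filter. Of these, correction for transcript length and GC, alone and with the replicate block, was chosen after the data were seen. With DZNep, 11 members were called higher and 20 lower. The study's threshold gave 5 and 11, and the values as deposited gave 12 lower. Without 1 library in turn the counts were 8 to 11 and 15 to 22, the S-phase median 0.18 to 0.30 and the mitotic median -1.12 to -0.56. Corrected for length and GC, with or without the block, the S-phase median was 0.086. With shEZH2 against Ctrl, 2 were higher and 4 lower. Both looser filters (1 or more in 2 samples, and no filter) and the stricter one (10 or more in all 6) gave 1 and 2, no intensity trend gave 1 higher, the values as deposited gave 2 lower, only the groups compared gave 8 lower, and the study's threshold gave 0 and 1. Counting the shEZH2 samples as 1 gave 0 and 0, by limma, in both comparisons that use them, where residual spread came from Ctrl and DZNep alone. Correction for length and GC gave 15 lower (25.9%, against 17.1% of all genes) and an S-phase median of -0.14 with or without the block. Without 1 library the counts were 0 to 3 and 0 to 7, and the medians -0.16 to -0.0028 for S-phase and -0.30 to -0.16 for mitotic members. Between treatments, 3 were higher and 5 lower in shEZH2. Only the groups compared gave 6 higher, the study's threshold gave 2 lower, correction for length and GC gave 19 and 13 (32.8% and 22.4%, against 17.3% and 16% of all genes) with an S-phase median of -0.20 (also with the block), and leaving out 1 library gave 0 to 6 and 0 to 6, with medians of -0.33 to -0.27 and 0.32 to 0.64. The causes were not tested. No median changed sign under any of these.

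The labels number the replicates without saying that a number marks a shared batch. The difference between replicates correlated over genes by 0.786 for Ctrl and DZNep, but by -0.0246 and -0.0389 for shEZH2 with either. Ctrl and DZNep samples of the same number thus shared a difference that the shEZH2 samples did not. Its source is not known, and the main fit did not pair samples. The replicate block gave 12 members higher and 26 lower with DZNep, where 27.5% and 28.2% of all genes were called. It added calls of TTK, CENPE, CENPF, KIF11, TOP2A and MKI67 (lower) and of TK1 (higher). With shEZH2 it gave 3 higher and 11 lower (5.17% and 19% of members, 14.2% and 14.1% of all genes), and in shEZH2 against DZNep 14 higher and 10 lower (24.1% and 17.2%, against 14.2% and 12%). With correction for length and GC as well, it gave 6 higher and 20 lower with shEZH2, and 25 higher and 13 lower between treatments. The share of all genes called with both was not computed, so these counts are no result about the members. Within the same number, 26 of 29 mitotic members were lower with DZNep for both numbers, with medians of -0.83 and -0.75. With 2 samples per group and no read depth, small changes could not be resolved.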
